A study of Mus musculus with 6 samples.

Results

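The genes described here are 9 core enzymes and subunits of the tricarboxylic acid (TCA) cycle: Cs, Ogdh, Dlst, Sucla2, Suclg1, Suclg2, Fh1, Mdh1 and Mdh2. They were taken by symbol from the 17710 genes listed in any table of the series, and all 9 were listed in every library and passed the filter on low counts. RNA was sequenced from 2 kinds of feeder-free mouse cell, with 3 XEN libraries and 3 ES libraries, each group lettered A to C. Extraembryonic endoderm (XEN) cells, which self-renew and stand for the primitive endoderm, the source of the yolk sac endoderm, came from strain ICR and grew in RPMI1640 with 15% FBS, Glut and BME. Embryonic stem (ES) cells, pluripotent cells of the early epiblast, came from strain 129/Ola and grew on 0.1% gelatin in N2B27-2iLIF, a serum-free medium with LIF and inhibitors that hold the naive state. Whether libraries A to C are separate cultures is not given in the labels, so p-values reflect no more than their spread, which may be technical. Cell type, strain and medium change together between the groups, so their parts in any difference cannot be told apart.

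The TCA cycle runs in the mitochondrial matrix and oxidises acetyl-CoA to carbon dioxide, passing electrons to NAD and FAD for the respiratory chain. Its intermediates also leave the cycle as precursors of lipids, amino acids and heme, and 2-oxoglutarate and succinate act as substrate and product of the dioxygenases that demethylate DNA and histones. In naive mouse ES cells the level of 2-oxoglutarate relative to succinate is known to bear on the maintenance of pluripotency. Of the genes here, Cs condenses acetyl-CoA with oxaloacetate, Ogdh and Dlst are the first 2 components (E1 and E2) of the 2-oxoglutarate dehydrogenase complex, and Suclg1, Sucla2 and Suclg2 are subunits of succinyl-CoA synthetase. Fh1 hydrates fumarate to malate, Mdh2 oxidises malate in the matrix, and Mdh1 is the cytosolic malate dehydrogenase of the malate-aspartate shuttle.

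The libraries held 21134720 to 22375875 expected counts in XEN and 20675311 to 22037793 in ES cells. The markers of each cell type fitted the labels: the 8 XEN markers summed to between 11151 and 11926 CPM (counts scaled to a common library size, with TMM factors for library composition) in XEN and 9.59 to 10.2 in ES libraries. The 8 ES markers summed to 189 to 211 CPM in XEN and 5662 to 5804 in ES libraries, and 6 of them were under 1 CPM in XEN cells; Klf4 and Tfcp2l1 were not, at 171 and 28.8. Fibroblast markers, which would mark feeder cells, summed to 7.45 to 9.65 CPM in XEN and 6.50 to 6.63 in ES libraries, with Twist2 at 0 in both groups and Col3a1 at 0 in ES libraries. Trophoblast markers summed to 9.88 to 12.3 CPM in XEN and 79.7 to 82.7 in ES libraries, where Tfap2c averaged 0.0623 CPM in XEN and 58.7 in ES libraries, and Hand1 was at 0 in both groups. Mesoderm markers summed to 3.87 to 4.94 CPM in XEN and 7.58 to 9.77 in ES libraries, with Mixl1 and Mesp1 at 0 in XEN libraries. Blood markers summed to 1.68 to 2.30 CPM in XEN and 18.9 to 21.0 in ES libraries, with Ptprc at 0 in both, and the part of these markers in the results was not tested.

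Transcripts of the cycle did not move in 1 direction. In XEN cells 6 of the 9 genes rose (Suclg2, Sucla2, Dlst, Suclg1, Mdh2 and Ogdh) and 3 fell (Mdh1, Cs and Fh1), by the quasi-likelihood F test of edgeR over all genes at an adjusted p of 0.05. Among the 9 genes the rise was steepest for the beta subunits of succinyl-CoA synthetase, at 2.35-fold (Sucla2) and 2.43-fold (Suclg2). These calls stand against a background in which 88.7% of the 13581 genes tested were called, 42.0% higher and 46.7% lower in XEN cells, so the number of calls says little by itself. The groups of 3 libraries did not overlap in CPM for any of the 9 genes, as for 89.4% of all genes tested. The median log2 fold change of the 9 genes was 0.54, against -0.07 over all genes tested, and the median size of the change was 0.54, against 0.92 over all genes. In glmTreat, which tests for a change beyond 2-fold, 2 of the 9 genes passed, both higher: Sucla2 (adjusted p = 3.89e-06) and Suclg2 (adjusted p = 7.18e-07). Of all genes 42.7% passed that test, 19.3% higher and 23.4% lower. Levels of different genes are compared in FPKM, the authors' values scaled by transcript length as well as depth. In bulk RNA, fewer cells that express a gene and less of its RNA per cell cannot be told apart.

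**Figure D1:**
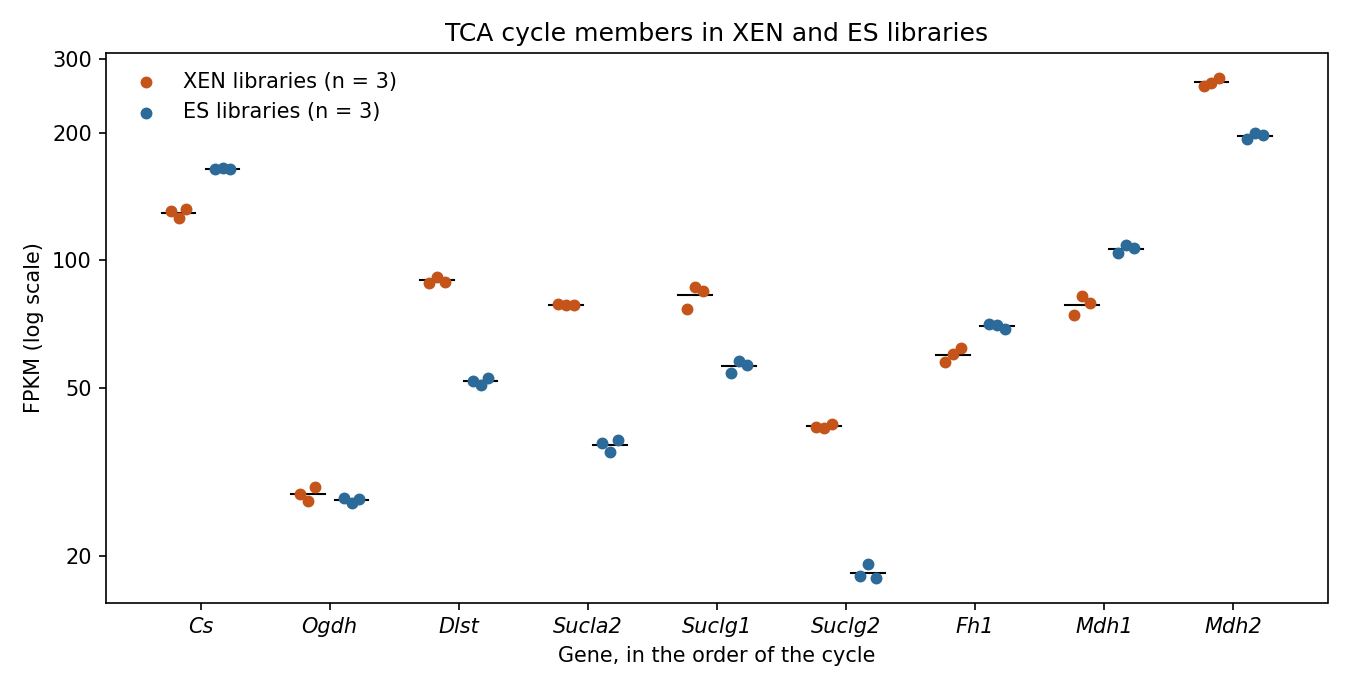
FPKM of the 9 genes on a log axis, with a point for each library and a line at the mean of 3, XEN left of ES. XEN libraries lie above ES libraries for Dlst, Sucla2, Suclg1, Suclg2 and Mdh2 and below them for Cs, Fh1 and Mdh1, while those of Ogdh overlap, at 27.0 to 29.1 FPKM in XEN and 26.6 to 27.4 in ES libraries.

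Succinyl-CoA synthetase converts succinyl-CoA to succinate and makes a nucleoside triphosphate, the only such step of the cycle. Its alpha subunit, Suclg1, pairs either with Sucla2, the beta subunit of the ATP-forming enzyme, or with Suclg2, that of the GTP-forming enzyme. Both beta subunits showed the largest changes among the 9 genes, and their RefSeq promoter windows are given below. The windows run from 250 bases before to 50 bases after the start (build GRCm38.p6). Capitals mark matches to any of 4 motifs searched on both strands. The motif bound by factors of the Sp family was GGGCGG, the one bound by estrogen-related receptors was AAGGTCA, the E-box of basic helix-loop-helix factors was CACGTG, and the box bound by NF-Y was CCAAT; none contains another.
Sucla2, chr14:73552536-73552835, plus strand: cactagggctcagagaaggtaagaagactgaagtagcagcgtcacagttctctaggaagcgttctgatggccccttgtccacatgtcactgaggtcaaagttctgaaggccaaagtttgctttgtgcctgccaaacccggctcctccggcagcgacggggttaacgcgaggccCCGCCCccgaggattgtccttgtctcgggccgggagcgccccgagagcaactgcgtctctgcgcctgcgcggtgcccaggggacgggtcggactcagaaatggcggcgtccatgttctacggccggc
Suclg2, chr6:95718797-95719096, minus strand: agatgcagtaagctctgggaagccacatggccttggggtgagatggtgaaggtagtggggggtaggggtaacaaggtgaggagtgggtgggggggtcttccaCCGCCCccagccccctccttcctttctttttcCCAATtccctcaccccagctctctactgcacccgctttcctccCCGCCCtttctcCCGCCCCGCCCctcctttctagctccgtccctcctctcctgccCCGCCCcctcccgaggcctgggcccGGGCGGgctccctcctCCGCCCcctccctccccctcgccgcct

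Both windows held GGGCGG, as did 35.7% of 32851 promoter windows, and that of Suclg2 also held CCAAT, as did 37.4% of them. Among the 9 genes GGGCGG was found in 8, all but Suclg1, and CCAAT in 5 (Cs, Ogdh, Suclg2, Fh1 and Mdh1). The motifs were chosen after these sequences were seen, so the counts are no test of enrichment. They also count genes with a match in any window, where the shares count single windows. AAGGTCA and CACGTG, in 4.72% and 7.15% of all windows, were found in Ogdh, which has 6 windows where each other gene has 1. GGGCGG was in windows of genes that rose and of genes that fell. CCAAT was in windows of Cs, Fh1 and Mdh1, which fell, and of Suclg2 and Ogdh, which rose. It was absent from those of Dlst, Sucla2, Suclg1 and Mdh2, which also rose, and a link between motif and direction was not tested. The 9 genes held from 13 CpG (Suclg2) to 28 CpG (Dlst) per window, taking the median of the Ogdh windows, against a median of 7 over all windows. Of all windows, 62.1% held fewer CpG than that of Suclg2 and 85.8% fewer than that of Dlst. These matches describe letters, and no binding was measured.

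Sucla2 had 166, 164 and 165 CPM in XEN libraries A, B and C, against 70.9, 67.5 and 72.1 in ES libraries A, B and C. The XEN libraries lay close together and all above the ES libraries. The log2 fold change was 1.23 ± 0.03 (SE of the difference, n = 3 each), with an adjusted p of 4.64e-17 in edgeR. Suclg2 had 142, 140 and 144 CPM in XEN libraries, against 57.1, 61.1 and 57.0 in ES libraries. Its log2 fold change was 1.28 ± 0.03 (edgeR adjusted p = 5.85e-17), the largest of the 9 genes, and 60.4% of all genes tested changed by less. The alpha subunit Suclg1 had 105, 117 and 116 CPM in XEN libraries, against 67.3, 72.0 and 70.5 in ES libraries. It rose by less than either beta subunit, with a log2 fold change of 0.69 ± 0.06 (edgeR adjusted p = 2.24e-11), and XEN library A was the lowest of its group.

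The balance of the beta subunits was compared as a ratio, with an exact test whose smallest p is 0.1, so it could not pass 0.05. The log2 ratio of Sucla2 to Suclg2 in CPM + 1 was 0.22 ± 0.02 in XEN and 0.26 ± 0.10 in ES libraries (SD, n = 3), a difference of -0.04 ± 0.06 (SE) with a two-sided exact permutation p of 0.5. Without ES library B, in which the ratio was lowest, the difference was -0.10 (exact permutation p = 0.1, the smallest possible). This was the largest difference in size when a library was left out. The library was picked by its value, so this p is no separate test. Per length, Sucla2 exceeded Suclg2 in both cell types, at 78.7 ± 0.219 and 40.5 ± 0.457 FPKM in XEN cells and 36.6 ± 1.19 and 18.3 ± 0.750 FPKM in ES cells. Their sum was 119 ± 0.407 FPKM in XEN and 54.9 ± 0.455 FPKM in ES cells, a ratio of 2.17. Suclg1 stood at 82.7 ± 5.34 FPKM in XEN and 56.1 ± 1.92 in ES cells. The log2 ratio of Suclg1 to both beta subunits, in FPKM + 1, was -0.52 ± 0.10 in XEN and 0.03 ± 0.06 in ES libraries. In CPM + 1 this ratio differed by -0.57 ± 0.06 (exact permutation p = 0.1, the smallest that 20 arrangements allow, and 0.125 adjusted over 5 ratios). Transcripts of the alpha subunit were near the sum of the beta subunits per length in ES cells and below it in all 3 XEN libraries. An unnamed model with the orthology term of both beta subunits held 7.94 to 22.2 counts in XEN and 5.03 to 7.82 in ES libraries, and summing it into either gene left the difference of their ratio at -0.04.

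The 2-oxoglutarate dehydrogenase complex, which makes succinyl-CoA, changed unevenly between its parts. Dlst, the E2 core that carries the lipoyl group, had 248, 253 and 248 CPM in XEN libraries, against 132, 129 and 135 in ES libraries. All 3 XEN libraries were close to each other and far above the ES libraries, with a log2 fold change of 0.92 ± 0.02 (edgeR adjusted p = 1.5e-15). Ogdh, the E1 component, had 192, 184 and 199 CPM in XEN libraries, against 171, 166 and 171 in ES libraries. The groups did not overlap in CPM, but they did in FPKM. The log2 fold change of Ogdh was 0.18 ± 0.04 (edgeR adjusted p = 0.000271), but it was 0.03 with upper-quartile factors (adjusted p = 0.415) and 0.05 with limma on log2(FPKM + 1) (adjusted p = 0.252), so its call rests on the scaling. The log2 ratio of Ogdh to Dlst was -0.38 ± 0.07 in XEN and 0.36 ± 0.02 in ES libraries in CPM + 1, a difference of -0.74 ± 0.04 (exact permutation p = 0.1, adjusted 0.125). CPM is not scaled by length, so the sign of this ratio does not rank the genes. In FPKM + 1 the ratio was -1.64 ± 0.07 in XEN and -0.91 ± 0.02 in ES libraries, with Ogdh below Dlst in both cell types.

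A second E1 gene moved opposite to Dlst. Ogdhl, a paralogue of Ogdh with the same orthology term in the tables, had 86.9, 99.4 and 96.5 CPM in XEN libraries, against 223, 233 and 210 in ES libraries. It fell by 1.23 ± 0.07 on the log2 scale (edgeR adjusted p = 1.03e-13) and passed the test against 2-fold. Per length, Ogdhl stood at 24.9 ± 1.82 FPKM in XEN and 64.1 ± 3.42 in ES cells, beside 28.1 ± 1.04 and 27.1 ± 0.427 FPKM of Ogdh in the same cells. Ogdhl was therefore below Ogdh in every XEN library and above it in every ES library. The 2 E1 genes together came to 52.9 ± 1.86 FPKM in XEN and 91.2 ± 3.15 in ES cells, while Dlst came to 89.7 ± 1.46 and 51.8 ± 0.991. The log2 ratio of their sum to Dlst, chosen after the values were seen, was -0.75 ± 0.05 in XEN and 0.80 ± 0.08 in ES libraries in FPKM + 1. Per length, this ratio was thus negative in every XEN library and positive in every ES library. In CPM + 1 it was 0.19 ± 0.05 in XEN and 1.56 ± 0.06 in ES libraries, so the change of sign rests on the unit. Dld, the E3 subunit that this complex shares with pyruvate dehydrogenase, rose by 0.61 ± 0.02 (edgeR adjusted p = 1.27e-11), to 46.6 ± 0.828 FPKM in XEN cells, against 33.4 ± 0.816 in ES cells. Mrps36, a small protein that ties E3 to this complex, rose by 0.33 ± 0.06 (edgeR adjusted p = 6.47e-05).

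**Figure D2:**
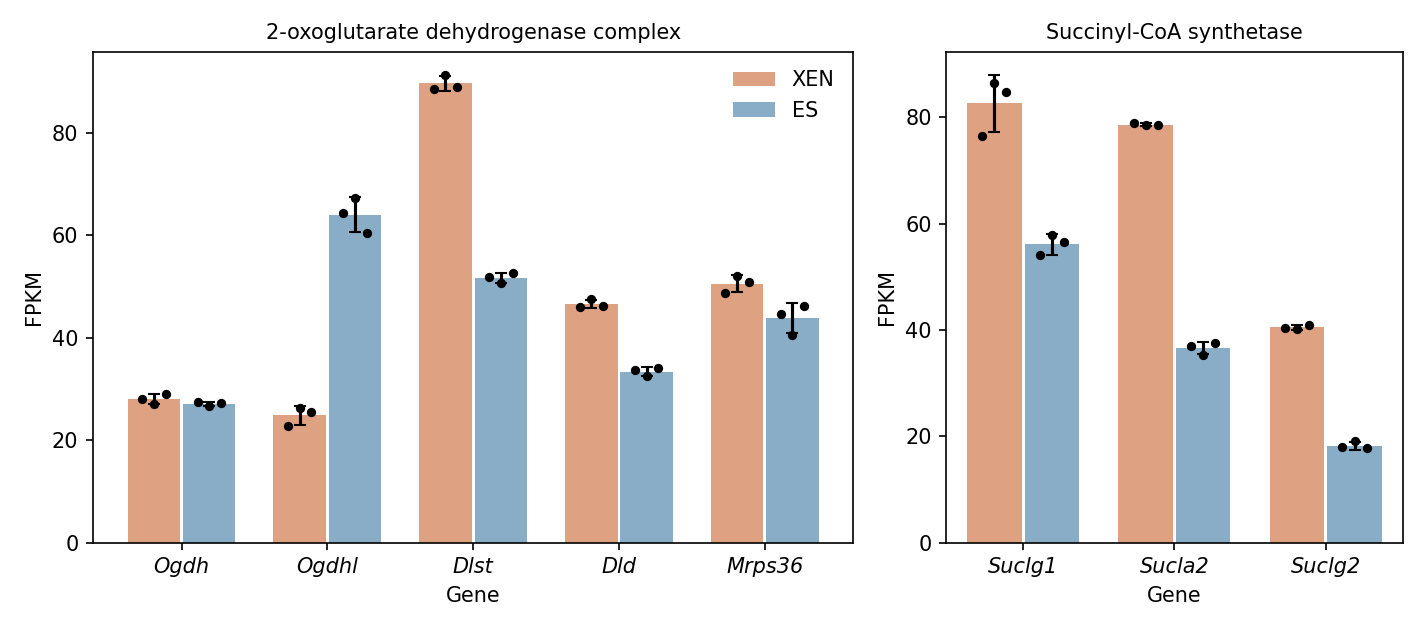
FPKM of subunit genes of the 2-oxoglutarate dehydrogenase complex (left) and succinyl-CoA synthetase (right), with bars at the mean of 3 libraries, error bars of 1 SD and points for libraries, XEN left of ES. Ogdhl is at 24.9 FPKM in XEN and 64.1 in ES cells, while Dlst and the 3 succinyl-CoA synthetase genes are higher in XEN cells.

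The enzymes that carry fumarate on to oxaloacetate did not move together. Fh1, fumarate hydratase, had 92.8, 96.2 and 99.7 CPM in XEN libraries, against 104, 103 and 101 in ES libraries. XEN library C and ES library C came closest, and the log2 fold change was -0.10 ± 0.03 (edgeR adjusted p = 0.0401). The adjusted p was 0.123 without XEN library A, 0.0699 without XEN library B, 0.113 without ES library A and 0.0791 without ES library B; with the letter as a block it was 0.0556. In limma on log2(FPKM + 1), the change of Fh1 was -0.22 and passed. Mdh2, which closes the matrix cycle by making oxaloacetate, had 322, 326 and 337 CPM in XEN libraries, against 221, 228 and 226 in ES libraries. It rose by 0.54 ± 0.02 (edgeR adjusted p = 1.37e-11) and was the most abundant of the 9 genes per length in both cell types. Mdh1, its cytosolic counterpart, had 144, 159 and 154 CPM in XEN libraries, against 184, 193 and 190 in ES libraries. It fell by 0.31 ± 0.04 on the log2 scale (edgeR adjusted p = 5.57e-07), so that the 2 malate dehydrogenases moved apart. The log2 ratio of Mdh1 to Mdh2 in CPM + 1 was -1.10 ± 0.06 in XEN and -0.25 ± 0.01 in ES libraries, a difference of -0.85 ± 0.04 (exact permutation p = 0.1, adjusted 0.125).

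Citrate synthase, Cs, brings acetyl-CoA into the cycle and its activity is often used as a measure of mitochondrial content. Its transcript had 392, 373 and 395 CPM in XEN libraries, against 448, 451 and 449 in ES libraries. The ES libraries lay close together and all above the XEN libraries, and the log2 fold change was -0.22 ± 0.03 (edgeR adjusted p = 1.92e-05). Relative to Mdh2, which makes its substrate oxaloacetate, Cs was lower in XEN than in ES cells. The log2 ratio in CPM + 1 was 0.24 ± 0.04 in XEN and 0.99 ± 0.02 in ES libraries, a difference of -0.76 ± 0.03 (exact permutation p = 0.1, adjusted 0.125). In FPKM + 1 the ratio was -1.02 ± 0.04 in XEN and -0.26 ± 0.02 in ES libraries, so Cs was below Mdh2 per length in both cell types.

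The order of the 9 genes by FPKM differed between the cell types below the top 2 places. Mdh2 led in both, at 264 ± 6.14 FPKM in XEN and 197 ± 3.43 in ES cells, followed by Cs at 130 ± 3.48 in XEN and 165 ± 0.730 in ES cells. In XEN cells Dlst came next, then Suclg1, Sucla2 and Mdh1, whose neighbours in this order overlapped between libraries, then Fh1, Suclg2 and Ogdh, each apart from the next. In ES cells Mdh1 and Fh1 came next, then Suclg1, Dlst, Sucla2, Ogdh and Suclg2, and no neighbours overlapped. Dlst was the third in XEN and the sixth in ES cells, and Mdh1 was the sixth in XEN and the third in ES cells. As a share of the summed FPKM of the 9 genes, Mdh2 took 31.0% ± 0.208 in XEN and 27.1% ± 0.222 in ES cells, and Cs took 15.2% ± 0.509 in XEN and 22.6% ± 0.164 in ES cells. The sum itself was 852 ± 16.7 FPKM in XEN and 729 ± 6.71 in ES cells, a ratio of 1.17 (exact permutation p = 0.1). All 9 genes were well expressed. Their FPKM exceeded that of 79.1% (Ogdh) to 98.0% (Mdh2) of listed genes in XEN libraries, and of 72.6% (Suclg2) to 97.6% (Mdh2) in ES libraries.

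The other enzymes of the cycle also changed in both directions. Of 10 such genes tested, 3 rose, 5 fell and 2 did not pass, beside 42.0% higher and 46.7% lower among all genes tested, so the counts are near the background. Their median log2 fold change was -0.26 and none passed 2-fold. With upper-quartile factors 2 rose and 6 fell. Succinate dehydrogenase, which oxidises the product of succinyl-CoA synthetase, had 3 of 4 subunits lower in XEN cells and 1 higher. Sdhb, its iron-sulfur subunit, fell by 0.91 ± 0.04 on the log2 scale (edgeR adjusted p = 4.01e-14), to 61.7 ± 2.59 CPM in XEN cells, against 116 ± 3.52 in ES cells. Sdhd, a membrane anchor subunit, rose by 0.50 ± 0.05 (edgeR adjusted p = 1.32e-09). Of the 3 subunits of the NAD-dependent isocitrate dehydrogenase, 2 fell and 1 did not pass, with Idh3g, a regulatory subunit, falling by 0.76 ± 0.05 (edgeR adjusted p = 7.27e-13).

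**Figure D3:**
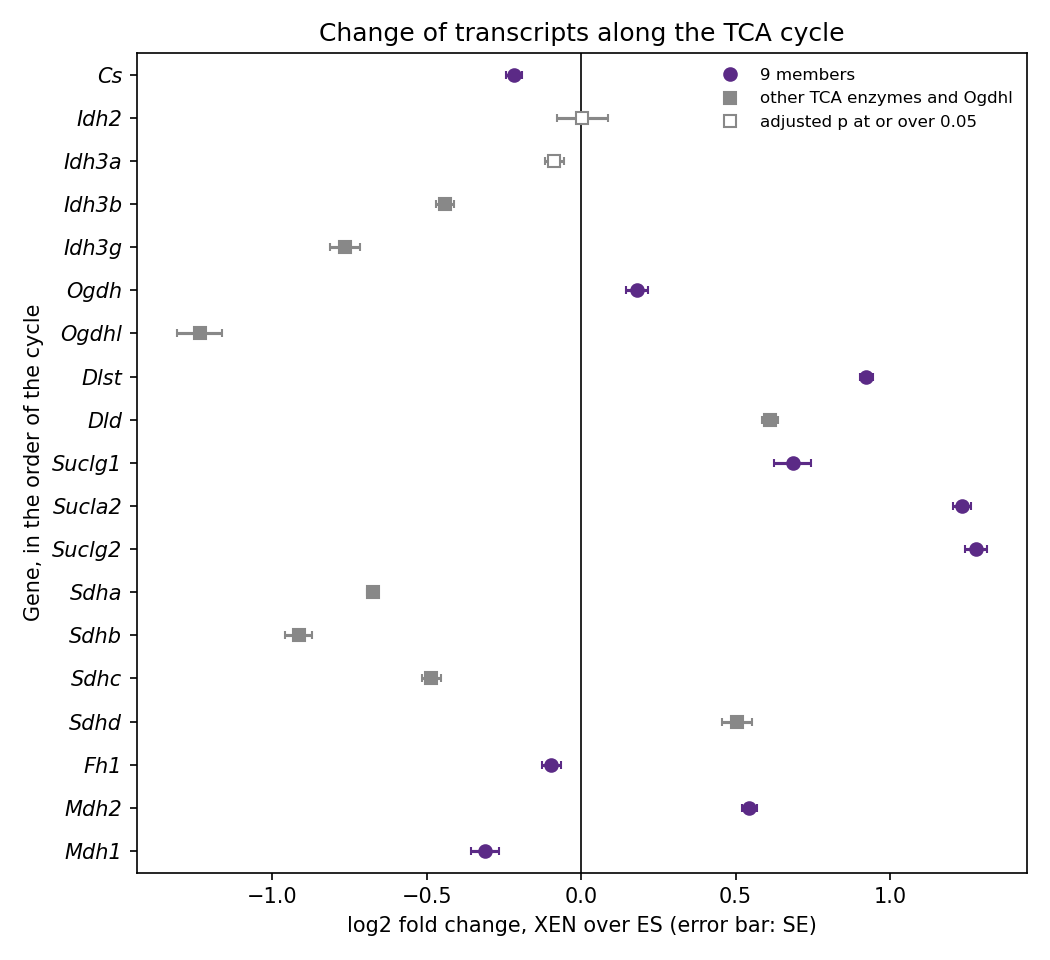
Log2 fold change of XEN over ES (x axis) with its SE for the 9 genes (circles) and 9 of the other cycle enzymes with Ogdhl (squares), in the order of the cycle; open symbols did not pass. Dlst and the 3 succinyl-CoA synthetase genes lie from 0.69 to 1.28, while Sdha, Sdhb, Sdhc and Ogdhl lie below 0.

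Genes that share lipoate chemistry with Dlst included some that fell and some that rose. Of 12 genes of lipoate-dependent dehydrogenases and lipoylation, 2 rose, 8 fell and 2 did not pass, beside 42.0% higher and 46.7% lower among all genes tested; whether the list differs from other genes was not tested. Dld, which rose, serves these complexes too but is counted with the cycle enzymes. Bckdhb, the E1 beta subunit of the branched-chain complex, fell by 1.92 ± 0.08 on the log2 scale (edgeR adjusted p = 1.32e-17), and Dhtkd1, an E1 of 2-oxoadipate that also uses Dlst, fell by 1.42 ± 0.05 (edgeR adjusted p = 1.5e-13). Lipt2, which transfers octanoyl groups for lipoylation, rose by 0.57 ± 0.13 at a low level (edgeR adjusted p = 0.000437). Pdhb, the E1 beta subunit of pyruvate dehydrogenase and the gene of its list with the highest mean FPKM, had 103 ± 2.47 FPKM in XEN and 113 ± 1.40 in ES cells. Its log2 fold change in edgeR did not pass (adjusted p = 0.889), but it was -0.15 with upper-quartile factors (adjusted p = 0.00104) and -0.13 with limma on log2(FPKM + 1) (adjusted p = 0.00278), so this call too rests on the scaling.

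Genes that exchange cycle intermediates changed both ways. Of 7 genes of the malate-aspartate shuttle and exchange carriers, 2 rose, 4 fell and 1 did not pass, and of 10 tested genes for entry and exit of carbon, 5 rose, 4 fell and 1 did not pass. Among all genes tested 42.0% were higher and 46.7% lower, so nothing particular to these lists is read from their counts. Got2, the mitochondrial aspartate aminotransferase, rose by 0.91 ± 0.03 (edgeR adjusted p = 2.8e-15), to 435 ± 12.3 CPM in XEN cells, against 232 ± 4.99 in ES cells. The cytosolic partner Got1 had a log2 fold change of -0.91 ± 0.04, so that the mitochondrial aminotransferase was higher and the cytosolic one lower in XEN cells, as for Mdh2 and Mdh1. Got1 was chosen after its values were seen. Slc25a13, an aspartate-glutamate carrier, fell by 1.35 ± 0.05, Slc25a1, the citrate carrier, fell by 0.99 ± 0.04, and Slc25a10, the dicarboxylate carrier, rose by 1.63 ± 0.08 (edgeR adjusted p at most 3.25e-14 for the 3). Among the genes for entry and exit of carbon, the malic enzymes Me1 and Me2 rose by 3.82 ± 0.08 and 2.66 ± 0.04 on the log2 scale. Acly, which splits exported citrate, fell by 1.16 ± 0.04, and Pck2, mitochondrial phosphoenolpyruvate carboxykinase, had 3.20, 7.36 and 10.5 CPM in XEN libraries, against 89.7, 87.4 and 90.9 in ES libraries. The list genes Pck1 and Me3 and the paralogue Mdh1b were under the filter on low counts, and Csl had no row.

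Scaling sets the zero of these changes. TMM factors were 0.951 to 0.960 in XEN and 1.04 to 1.05 in ES libraries, and with upper-quartile factors the median shift of the log2 fold change over all genes was -0.15, with 5093 genes higher and 7059 lower, against 5707 higher and 6337 lower with TMM. With that scaling 5 of the 9 genes rose and 3 fell, since Ogdh no longer passed, and the 9 genes kept their signs. Differences between 2 members are free of this choice.

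**Figure D4:**
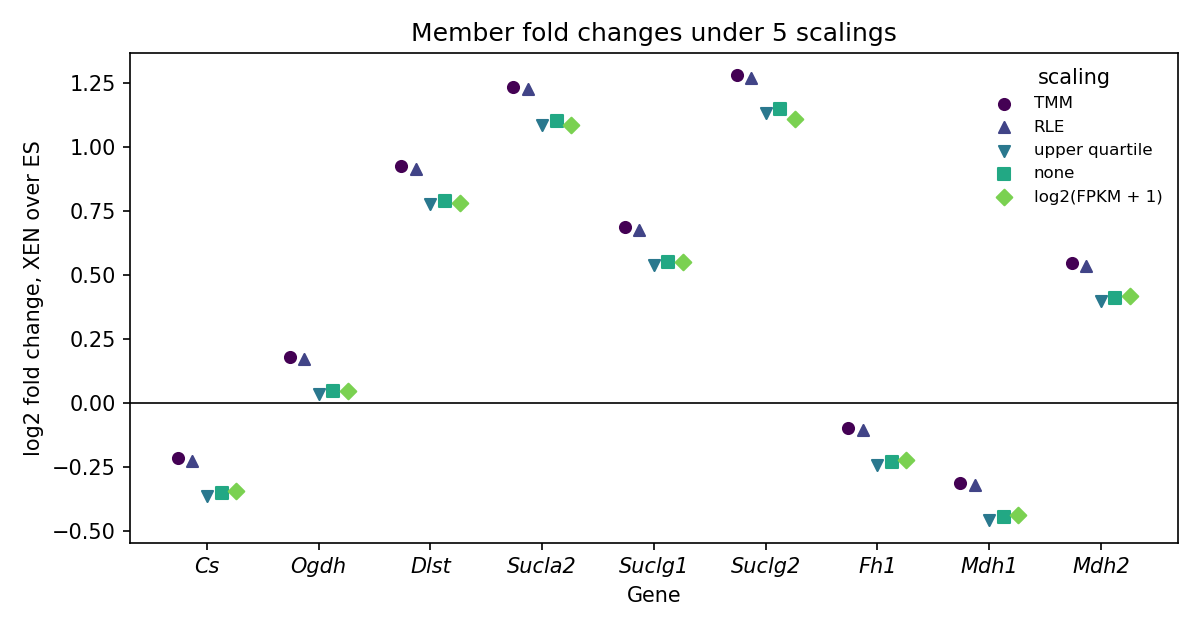
Log2 fold change of XEN over ES (y axis) for each of the 9 genes (x axis) under 5 scalings, with a symbol for each. The points of each gene stay on 1 side of 0; Ogdh lies at 0.18 with TMM and 0.03 with upper-quartile factors.

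The pattern of Suclg2, the gene with the largest change, was shared with many others. The genes closest to it by Pearson correlation of log2 CPM over the 6 libraries were Nr4a3 (r = 0.99996), Krt23 (r = 0.99993) and Arhgef17 (r = 0.99989), with log2 fold changes of 9.75, 9.90 and 1.46. Of 12904 genes compared, 2680 had an r over 0.99, since the 6 libraries form 2 groups and the correlation follows that split.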

How the data were processed

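The authors deposited a table per library, 6 in all, of total RNA read on a BGISEQ-500 instrument. Per the submitters' processing notes, they used the mm9 build, Bowtie2, RSEM and DESeq2; roles and versions are not given in the sources used here. Each deposited table holds expected counts, not all whole, and the authors' FPKM values, with model lengths. Genes missing from a table were set to 0. Expected counts were rounded, filtered with filterByExpr (13581 of 17710 genes) and scaled by TMM. XEN was compared with ES by the edgeR 4.0.16 quasi-likelihood F test in R 4.3.3, without covariates, and p-values were adjusted by Benjamini-Hochberg over all genes tested; glmTreat tested against 2-fold. CPM used TMM-scaled library sizes. Each SE of a log2 fold change used the within-group variance of log2 CPM with a prior count of 2. Levels of different genes were compared by FPKM. Ratios in CPM + 1 are not scaled by length, so their differences between the groups are read, not their signs. Ratios of related genes, on log2(CPM + 1), were tested by two-sided exact permutation over 20 arrangements, whose smallest p is 0.1. Named genes were all 9 members and, of each of 5 related lists, up to 2 called genes with the largest change in each direction (over 5 CPM on average), and the gene with the highest mean FPKM. A gene that this rule names is not reported here. Members, lists and motifs were chosen with earlier results of these data known, and the motifs after the sequences were seen, when an NRF1 motif tried first was replaced by the GC box. Deviations from the group means correlated at 0.0076 to 0.033 between same-lettered libraries and at -0.023 to 0.0020 between libraries of different letters. These values are small and come from few libraries, so whether the letters pair them was not decided. No 2 libraries of a group were alike within sampling noise, with a chi-square over its degrees of freedom of at least 2.31. The tables' build (mm9) differs from that of the promoter windows (GRCm38.p6), which were matched by gene identifier. Alternatives included DESeq2 1.42.0 and limma 3.58.1. The scripts were tested on simulated data.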

Additional observations from a re-analysis of the deposited data

How the results depend on the processing

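Of 171 refits of the 9 genes, 19 alternatives for each, 160 kept the direction and the call and 11 kept the direction but lost the call: 4 of Ogdh (upper-quartile factors, no composition factors, and limma on FPKM with either pseudocount) and 7 of Fh1. Those of Fh1 were without XEN library A or B, without ES library A or B, without the filter on low counts, with the replicate block and with DESeq2 (adjusted p = 0.059). With the replicate block 6 of the 9 genes rose and 2 fell, and Fh1 was the only member whose call it changed. The cause was not tested. Counts of calls moved by at most 1.5 times under the alternatives run; the largest moves were 3 to 2 members lower (the 7 alternatives of Fh1) and 3 to 2 other cycle enzymes higher (the 4 of Ogdh). No ratio changed direction, and that of Sucla2 to Suclg2 ran from -0.10 to -0.0069 when a library was left out. Pdhb turned to 0.0054 without the filter and ran from -0.019 to 0.012 when a library was left out, but it was called lower under the 4 alternatives that lost Ogdh (-0.15 to -0.13). Each of the 9 genes had at least 1239 counts in every library.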
